A study of Mus musculus with 9 samples.

Results

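The ventral GABAergic gene group comprised 9 genes, the transcription factor genes Gsx2, Dlx1, Dlx2, Dlx5, Dlx6 and Sp9, the non-coding transcript Dlx6os1, and Gad1 and Gad2, which encode the enzymes that make GABA. They were taken by gene name from the authors' tables of 3 comparisons of embryonic mouse cortex, which together list 1030 distinct genes. The group was chosen by the log2 fold changes in those same tables, so every fold change of a member given here is a description of the selection and not a test of it. Expression had been measured by RNA sequencing of 9 cortices at embryonic day 12, 3 per genotype. The groups were Emx1 Cre/+; Zbtb7a fl/+ embryos (cHet, with 1 floxed allele), Emx1 Cre/+; Zbtb7a fl/fl embryos (cKO, with 2 floxed alleles) and Emx1 Cre/+; Zbtb7a +/+ embryos (WT), so every embryo, WT included, carried Cre at Emx1. The cortices of each genotype came from 2 litters, and the labels do not tie an embryo to a litter or give its sex. Emx1 drives Cre in progenitors of the dorsal telencephalon, and Zbtb7a encodes a zinc finger transcription factor.

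In the embryonic forebrain, inhibitory neurons that use GABA as transmitter are born in the ventral telencephalon, in the ganglionic eminences, and many then migrate into the cortex. Gsx2 acts early in progenitors of the lateral eminence, the Dlx homeodomain factors act in progenitors and migrating cells and activate genes of the GABAergic fate, and GABA is then made from glutamate by the glutamate decarboxylases encoded by Gad1 and Gad2. Excitatory neurons of the cortex arise locally from dorsal progenitors that express Emx1, Emx2 and Lhx2. In a bulk cortex sample, a lower value of a ventral gene can come from fewer ventral cells or from less RNA per cell, and these cannot be told apart.

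The tables give differences and no levels, so neither the label of the tissue nor the name of the gene group could be checked against expressed markers. They hold no value per embryo either, so whether each cHet embryo was low, or whether the groups overlapped, is not shown by them. Zbtb7a itself was listed in none of the 3 tables, which leaves the genotype labels unchecked by its expression.

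The members lie in 4 places in the genome (mm10, positions from GENCODE M21 on the same assembly). On chromosome 2 are Gad2 (ENSMUSG00000026787, 22622205 to 22693874), Gad1 (ENSMUSG00000070880, 70553072 to 70602014), Dlx1 (ENSMUSG00000041911, 71528113 to 71533981), Dlx2 (ENSMUSG00000023391, 71543408 to 71546754) and Sp9 (ENSMUSG00000068859, 73271925 to 73284706). Gsx2 (ENSMUSG00000035946) lies on chromosome 5 from 75075601 to 75077893. On chromosome 6 are Dlx6os1 (ENSMUSG00000090063, 6820189 to 6871592), Dlx6 (ENSMUSG00000029754, 6863334 to 6868568) and Dlx5 (ENSMUSG00000029755, 6877805 to 6882085). Dlx1 and Dlx2 face each other across 9426 bp, and Dlx6 and Dlx5 across 9236 bp, the paired arrangement typical of Dlx genes.

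Promoter windows of 300 bases, from 250 before to 50 after a transcript start, were taken from RefSeq (GRCm38.p6, the assembly of mm10) for 7 of the 9 members, as 8 windows because Dlx6os1 has 2. They were searched on both strands for 3 motifs, the homeodomain core TAATTA, the E-box CAGCTG bound by proneural factors, and the TATA box TATAAA. The 4 windows with a match are printed here 5′ to 3′ on the strand of the gene. Matches are in capitals (TTTATA is TATAAA on the other strand). They show which letters these jointly lower genes carry next to a RefSeq transcript start. For Gad1 and Dlx6os1 such starts lie inside the GENCODE gene spans given above, away from where those spans begin. The windows are chr6:6869484-6869783 and chr6:6861634-6861933, both on the minus strand, for Dlx6os1, chr5:75075351-75075650 on the plus strand for Gsx2, and chr2:70561879-70562178 on the plus strand for Gad1.
Dlx6os1, window 1: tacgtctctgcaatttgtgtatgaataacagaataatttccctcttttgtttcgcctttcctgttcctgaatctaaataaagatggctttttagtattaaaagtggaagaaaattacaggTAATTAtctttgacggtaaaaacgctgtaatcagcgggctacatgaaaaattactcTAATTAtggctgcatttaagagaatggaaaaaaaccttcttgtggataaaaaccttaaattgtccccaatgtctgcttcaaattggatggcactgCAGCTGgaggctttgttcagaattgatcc
Dlx6os1, window 2: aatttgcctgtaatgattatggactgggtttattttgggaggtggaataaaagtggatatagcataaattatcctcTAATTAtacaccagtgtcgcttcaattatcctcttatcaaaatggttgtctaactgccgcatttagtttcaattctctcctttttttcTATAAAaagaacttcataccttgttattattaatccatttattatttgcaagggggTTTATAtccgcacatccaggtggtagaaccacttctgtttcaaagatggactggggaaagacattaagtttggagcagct
Gsx2: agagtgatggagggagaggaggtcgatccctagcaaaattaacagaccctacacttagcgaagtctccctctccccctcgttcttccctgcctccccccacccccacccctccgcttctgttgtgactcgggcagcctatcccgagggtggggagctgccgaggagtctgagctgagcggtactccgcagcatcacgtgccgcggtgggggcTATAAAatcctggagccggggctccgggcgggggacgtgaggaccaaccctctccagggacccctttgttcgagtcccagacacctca
Gad1: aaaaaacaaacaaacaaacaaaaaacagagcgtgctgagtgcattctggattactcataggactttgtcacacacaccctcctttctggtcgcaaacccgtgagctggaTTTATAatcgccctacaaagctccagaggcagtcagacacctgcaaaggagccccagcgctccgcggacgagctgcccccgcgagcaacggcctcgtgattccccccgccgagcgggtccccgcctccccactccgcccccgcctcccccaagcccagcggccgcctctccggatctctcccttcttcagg

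Among the 8 windows, TAATTA was found in the 2 of Dlx6os1, where it occurred at positions -130 and -74 of the first window and at -174 of the second, counted from the transcript start. Over all 32851 RefSeq promoter windows of this length, 5.29% held it. TATAAA was found in 3 windows, those of Gad1, Gsx2 and the second of Dlx6os1, against 13.6% of all windows. CAGCTG was found in 1, the first of Dlx6os1, against 16.3% of all windows. The Dlx6os1 windows stood apart in base composition, with 35.7% and 35.3% G and C, while those of the other members held 60.0% to 69.3% and the median of all windows was 52.7%. A motif match of this length describes letters and is not a binding site, and windows rich in A and T have more chances to hold TAATTA or TATAAA.

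**Figure D1:**
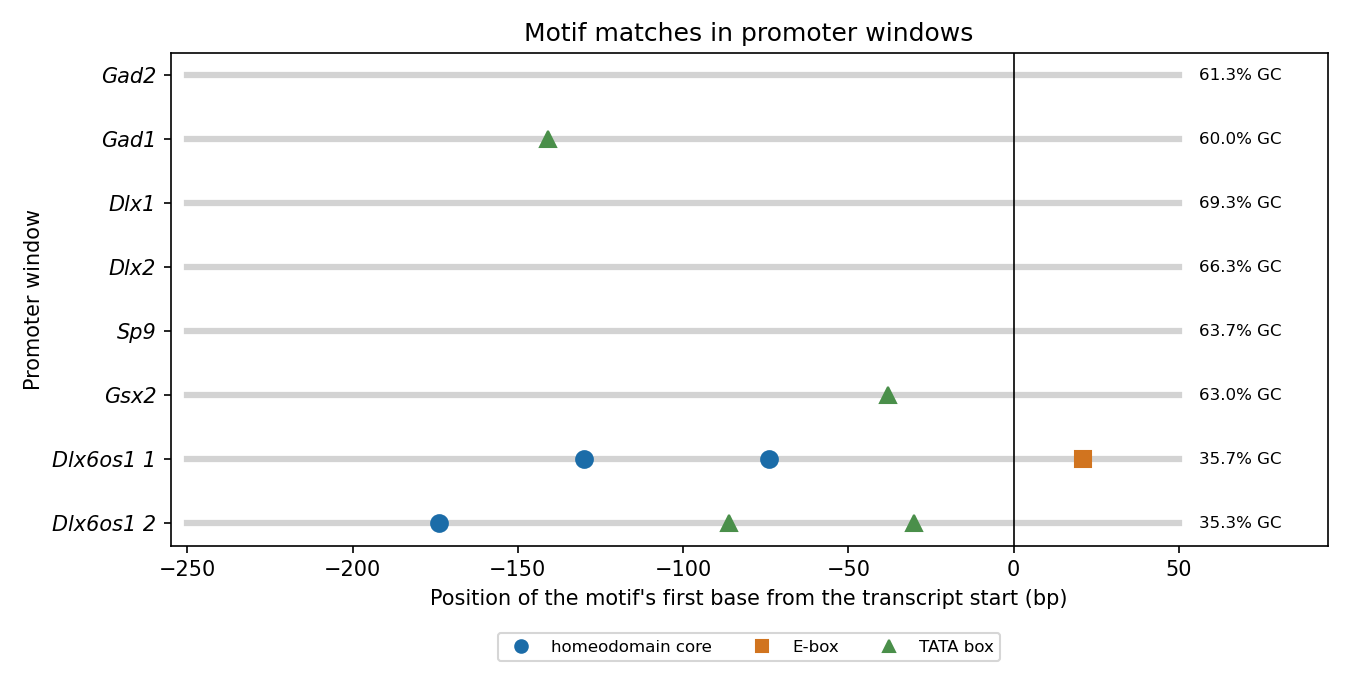
Motif matches in the 8 promoter windows, by position of the motif's first base from the transcript start in bp (x axis) and by gene (y axis), with the share of G and C at the right. The homeodomain core was matched in the Dlx6os1 windows alone among these 8, and those 2 windows have the lowest share of G and C.

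Between cHet and WT cortices, 7 members were listed, meaning that the authors' adjusted p was under 0.05, and all 7 were lower in cHet. They were Gsx2, Dlx1, Dlx2, Dlx6, Dlx6os1, Gad1 and Gad2. Of the 15465 genes in the authors' adjustment, 0.789% were listed as lower and 1.60% in either direction, but since these calls chose the members, their count is not read against that share. Between cHet and cKO cortices, 7 members were listed as well, all lower in cHet, with Dlx5 and Sp9 present and Dlx6 and Gad1 absent. Of the 13375 genes adjusted there, 4.14% were listed as lower and 7.26% in either direction. Between cKO and WT cortices none of the 9 was listed, where the authors listed 4 of 26976 genes (0.0148%), of which 3 are lower (0.0111%). Their results give neither fold changes nor unadjusted p-values of unlisted genes. The cHet libraries enter both tables that list members, so the values from those tables are not independent of each other.

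The upstream regulator Gsx2 had a log2 fold change of -5.65 (standard error, SE, 1.51) in cHet against WT in the authors' deposited table, with an adjusted p of 0.022. A log2 change of that size puts the fitted cHet level at 1.99% of the WT level, with a 95% interval from the SE of 0.255% to 15.5%. Against cKO, Gsx2 had -5.55 (SE 1.51) with an adjusted p of 0.016 in the authors' deposited table, and the fitted cHet level was 2.13% of that in cKO. Gsx2 thus carried the widest error of the listed members in both comparisons.

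Of the paired genes on chromosome 2, Dlx1 had -5.09 (SE 1.33) against WT and -5.15 (SE 1.33) against cKO in the authors' deposited tables. Its partner Dlx2 had -4.30 (SE 1.13) against WT and -4.49 (SE 1.13) against cKO in the authors' deposited tables. The fitted cHet level of Dlx2 was 5.07% of WT (95% interval 1.10% to 23.5%) and 4.45% of cKO (95% interval 0.962% to 20.6%), and that of Dlx1 was 2.94% of WT and 2.82% of cKO. Adjusted p-values in the authors' deposited tables were 0.018 for Dlx1 and 0.019 for Dlx2 against WT, and 0.011 for Dlx1 and 0.0080 for Dlx2 against cKO. The intervals of Dlx1 and Dlx2 overlap widely in each comparison, so no order between the partners can be read from them.

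The pair on chromosome 6 was divided between the tables. Dlx6 had the largest fitted change of the group, -7.17 (SE 1.42) in cHet against WT with an adjusted p of 3.9e-04 in the authors' deposited table, a fitted cHet level of 0.697% of WT (95% interval 0.102% to 4.77%). Dlx6 was not listed against cKO. Dlx5 was not listed against WT, and against cKO had -4.07 (SE 1.38) with an adjusted p of 0.048 in the authors' deposited table, the member closest to the threshold of 0.05. The fitted cHet level of Dlx5 was 5.97% of cKO, with a 95% interval from 0.911% to 39.1%.

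Dlx6os1, also known as Evf2, is transcribed from the strand opposite Dlx6 and is known to regulate the Dlx genes beside it. It had -5.11 (SE 1.26) against WT and -5.36 (SE 1.26) against cKO in the authors' deposited tables, with adjusted p-values of 0.011 and 0.0036. The fitted cHet level was 2.90% of WT and 2.43% of cKO. Although the Dlx6os1 gene spans Dlx6, their annotated exons share 0 bp, so exonic reads of the 2 genes need not be confused, while reads from unspliced RNA could be. Dlx1 and its antisense transcript Dlx1as do share exons, over 335 bp or 6.21% of the exonic length of Dlx1. Sp9 shares 270 bp, or 5.35%, with Cir1 on the opposite strand. Dlx6 shares 104 bp, or 4.38% of its exonic length, with Dlx6os2 on the opposite strand. Dlx6os1 shares 180 bp with Gm27699 and 207 bp with Gm27905, both on the opposite strand. Dlx6os1 also shares 104 bp with another annotated entry of the same name on its own strand. Whether reads were counted by strand is not given in the sources used here. Apart from the match of Dlx1 with Dlx1as (99.7% identity over 341 bp), no member's transcripts matched those of another gene at 95% identity or more over at least 300 bp.

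Sp9, a zinc finger factor of ganglionic eminence progenitors and of striatal and interneuron development, was listed only against cKO. It had -4.56 (SE 1.40) with an adjusted p of 0.031 in the authors' deposited table, a fitted cHet level of 4.24% of cKO (95% interval 0.633% to 28.5%).

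Both GABA-synthesising enzyme genes were lower in cHet than in WT. Gad2, whose product GAD65 is associated with synaptic vesicles, had -4.94 (SE 1.28) against WT and -4.78 (SE 1.28) against cKO in the authors' deposited tables, with adjusted p-values of 0.018 and 0.014. Gad1, whose product GAD67 makes most of the GABA in the brain, had -4.20 (SE 1.21) against WT with an adjusted p of 0.040 in the authors' deposited table, and was not listed against cKO. The fitted cHet level against WT was 5.44% for Gad1 (95% interval 1.05% to 28.1%) and 3.27% for Gad2 (95% interval 0.576% to 18.5%). These intervals overlap each other and those of all 5 other members listed against WT.

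**Figure D2:**
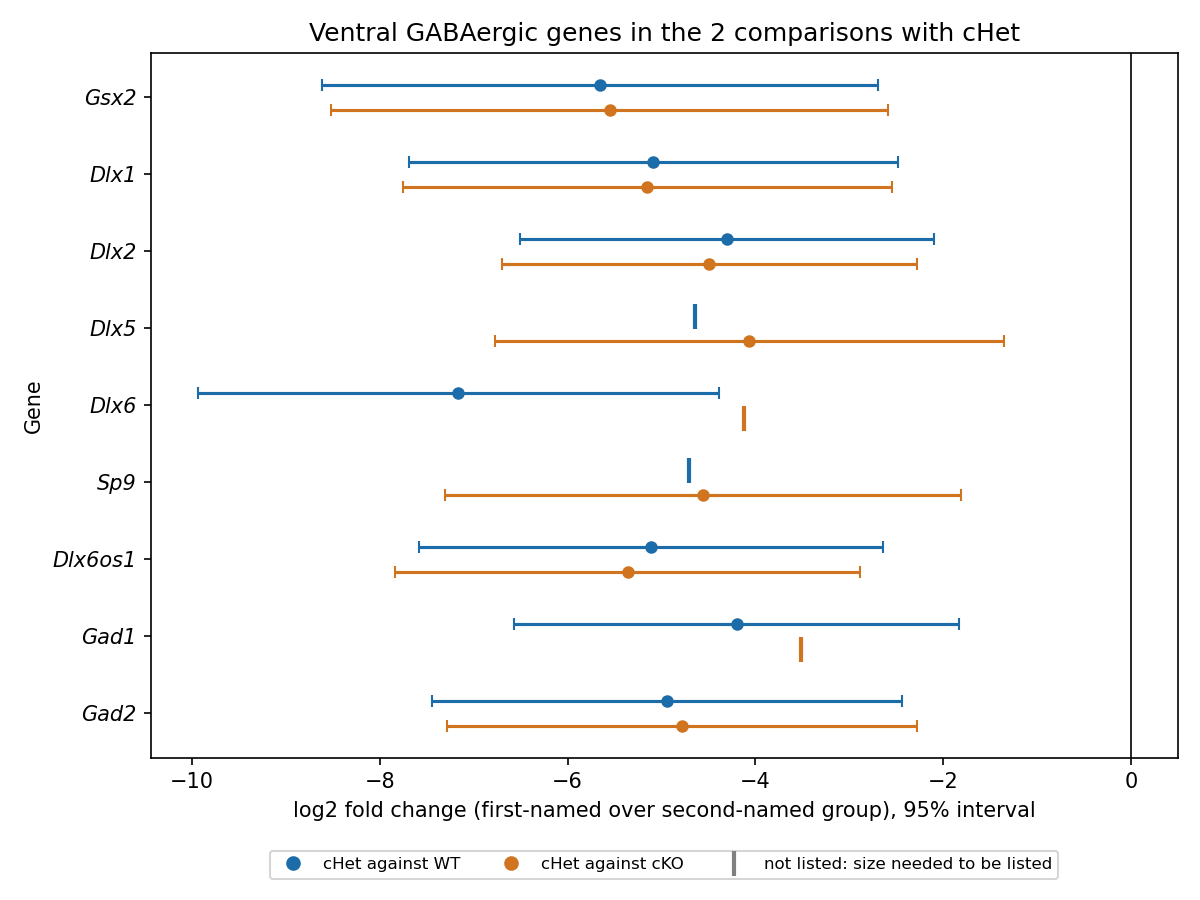
Log2 fold changes of the 9 genes in cHet against WT and cHet against cKO (points) with 95% intervals of 1.96 SE (bars), 3 embryos per group, from the authors' deposited tables. Vertical ticks mark, for a gene that a table does not list, the size at which it would be listed if its SE were that of the other table; all listed intervals lie below 0 and overlap one another.

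Absence from a table is not a change of 0. The smallest absolute statistic (log2 fold change over SE) listed was 3.36 in cHet against WT and 2.91 in cHet against cKO. With the SE they had against cKO, Dlx5 and Sp9 would have been listed against WT only at a decrease larger than 4.65 and 4.70 on the log2 scale, and their changes against cKO, -4.07 and -4.56 in the authors' deposited table, are smaller than that. Decreases against WT of the same size as those against cKO would therefore have gone unlisted. Gad1 and Dlx6 differ in this respect. With the SE they had against WT, they would have been listed against cKO from 3.52 for Gad1 and 4.12 for Dlx6, sizes that their changes against WT (-4.20 and -7.17 in the authors' deposited table) exceed. Either their change against cKO was smaller than these limits, or their SE was larger, or they were not among the 13375 genes that entered that adjustment, and the tables do not say which.

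In cKO against WT the smallest absolute statistic listed was 4.57. With the SEs from the other tables, a member would have been listed only from a log2 change of 5.15 for Dlx2 to 6.91 for Gsx2. The SE of cKO against WT is not given for any member and could be smaller or larger than these. For the 5 members listed in both other tables, Gsx2, Dlx1, Dlx2, Dlx6os1 and Gad2, the change of cKO over WT can be computed as the difference of the 2 deposited values. It came to -0.10 for Gsx2, 0.06 for Dlx1, 0.19 for Dlx2, 0.25 for Dlx6os1 and -0.16 for Gad2, or ratios of cKO to WT from 0.896 to 1.19. The SE of such a difference is at most 1.59 for Dlx2 to 2.14 for Gsx2 if the groups are independent, which leaves room for several-fold differences in either direction. The calculation holds if the tables are unshrunken values of 1 fit, and it leaves out the 4 members listed in 1 table alone. Entry required a listed decrease in both tables, which favours small differences, so the 5 values do not stand for the group. Of those left out, Gad1 and Dlx6 were listed against WT alone, and Dlx5 and Sp9 against cKO alone. Dlx6, at -7.17 against WT in the authors' deposited table, would have been listed against cKO from 4.12 with the same SE.

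The SEs of these 5 members were nearly the same in both tables, with a largest gap of 0.00039. The error of the members was large beside that of other listed genes. Their median SE was 1.28 in cHet against WT, where the median of all 248 listed genes was 0.160, and 1.33 in cHet against cKO, where the median of all 971 was 0.191. An SE over 1 was found for 10 genes in cHet against WT, of which 7 are members, and for 9 in cHet against cKO, again with 7 members. A large SE can come from few reads or from wide spread between embryos, and the tables do not separate these. A listed gene with an SE near 1.3 must also show a large fold change to pass the threshold, so the sizes of the listed members lie at the high end by selection.

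The median log2 change of the listed members was -5.09 in cHet against WT, beside -0.99 over all 122 lower genes, and -4.78 in cHet against cKO, beside -0.82 over all 554 lower genes. By size, the 7 members held places 2 to 8 among all genes listed in cHet against WT. In cHet against cKO, the 7 listed there held places 2 to 9 except place 6, which was held by the predicted gene Gm14204. The group was chosen by these changes, so the places by size describe that choice. By adjusted p, in contrast, the members' places ran from 16 to 201 of 248 in cHet against WT, and in cHet against cKO from 79 to 917 of 971.

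**Figure D3:**
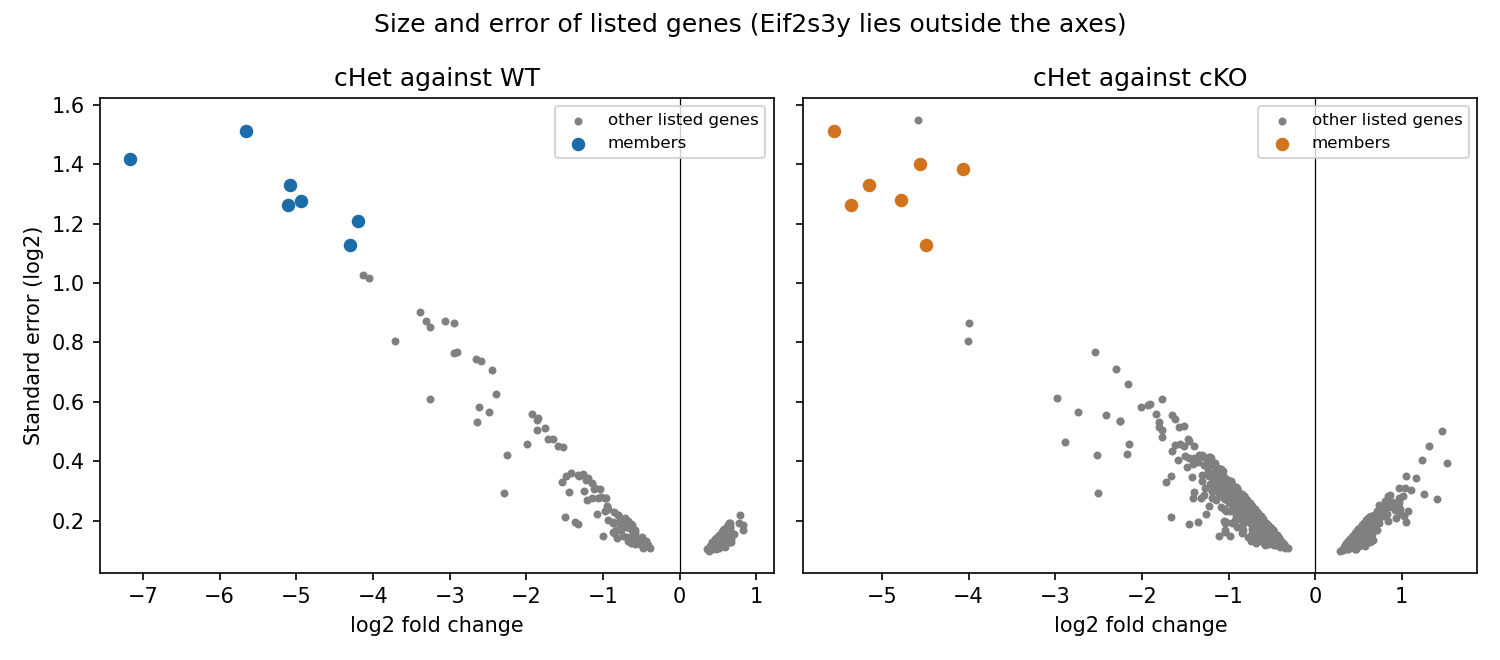
Log2 fold change (x axis) against its standard error (y axis) for the genes listed in cHet against WT (left) and cHet against cKO (right), members coloured, from the authors' deposited tables. Eif2s3y, which has a larger change and error than any member in both comparisons, lies outside the axes and is not drawn. The members sit at the upper left, with SEs between 1.13 and 1.51, and the empty wedge around 0 is where genes do not pass the authors' threshold.

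Position on chromosome 2 was examined because Gad1, Dlx1, Dlx2 and Sp9 lie within 2.73 Mb of one another. That interval holds 22 protein-coding genes, and none of the other 18 was listed in any of the 3 tables. Over all genes adjusted, 1.60% were listed in cHet against WT and 7.26% in cHet against cKO. At such shares few or none of 18 genes would be listed, so their absence is not read as a result. Dlx1as, the antisense transcript that overlaps Dlx1, was the only further gene with a start within 500 kb of a member that was listed in cHet against WT. It had -4.05 (SE 1.02) with an adjusted p of 0.013 in the authors' deposited table, and it was not listed against cKO. Within the same distance, cHet against cKO listed Acn9 near the Dlx5 and Dlx6 pair at -0.74 (SE 0.25), Chic2 near Gsx2 at -0.58 (SE 0.15) and Wipf1 near Sp9 at 0.64 (SE 0.21) in the authors' deposited table. These 3 changes are several times smaller than those of the members beside them, whose larger SEs let only large changes be listed.

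**Figure D4:**
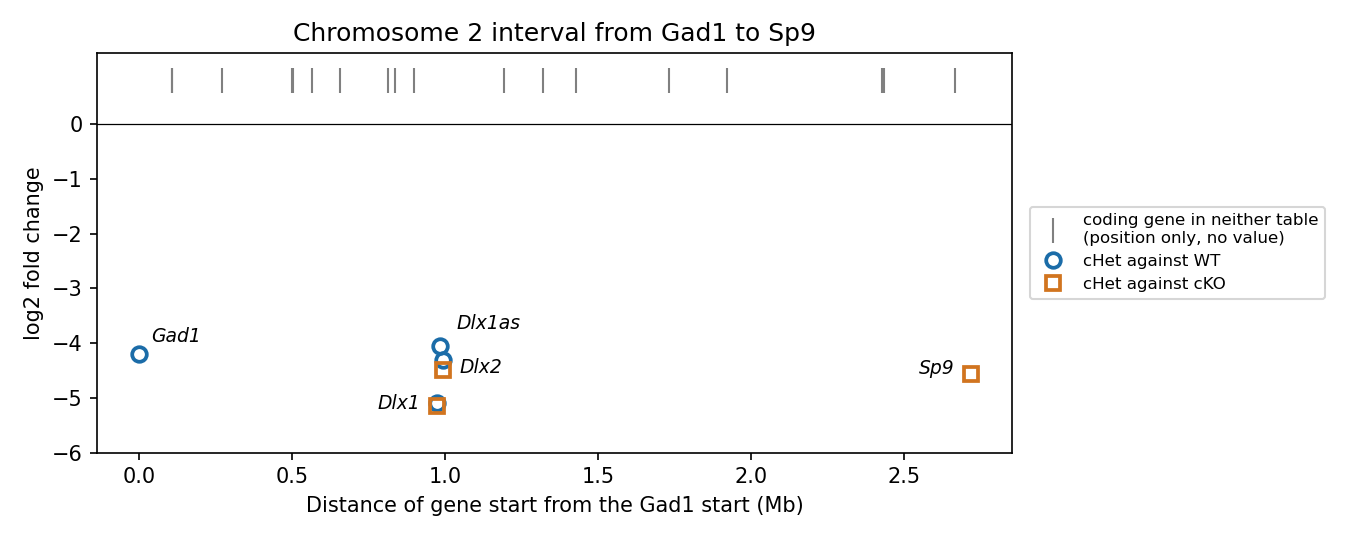
Log2 fold changes of listed genes along the chromosome 2 interval from Gad1 to Sp9, by distance of the gene start from that of Gad1 in Mb, from the authors' deposited tables. Grey ticks mark the positions of the 18 other protein-coding genes, which have no value because no table lists them.

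Counts over other gene lists are set beside the share of all genes in the authors' adjustment that each table lists in the same direction. That share was 0.789% lower and 0.815% higher in cHet against WT, and 4.14% lower and 3.12% higher in cHet against cKO. Shares of a list are of its annotated genes, since which of them entered the adjustment is not in the tables. Of 25 further ventral telencephalon regulators, among them Nkx2-1, Lhx6, Lhx8, Isl1 and Sp8, Dlx1as was the 1 gene listed in cHet against WT, and 0 were listed in cHet against cKO by the authors' DESeq2 test. Dlx1as was also the 1 gene of 10 relatives and partner transcripts of the members, a list that includes Dlx3, Dlx4, Gsx1, Gad1os and Sp8. Of 28 genes of interneuron migration and subtypes, 2 were lower and none higher in each comparison with cHet, Sst and Nrxn3 both times. Those 2 are 7.14% of the list, a share closer to that of all genes against cKO than against WT. Sst, the somatostatin gene that marks a class of interneurons, had -3.06 (SE 0.87) against WT and -3.99 (SE 0.87) against cKO in the authors' deposited tables. Nrxn3, a presynaptic adhesion gene, had -2.48 (SE 0.56) against WT and -2.74 (SE 0.56) against cKO in the authors' deposited tables. Unadjusted p-values of unlisted genes are not in the tables, so a count at that level cannot be given for any list.

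Of 22 genes of GABA transport, breakdown and reception, including the vesicular transporter gene Slc32a1, 0 were listed in cHet against WT by the authors' DESeq2 test. No gene of any of the 15 lists was listed in cKO against WT.

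Dorsal genes that were listed were higher in cHet. Of 19 dorsal telencephalon regulators, 5 were higher and none lower in cHet in each comparison, or 26.3% of the list beside 0.815% of all genes against WT and 3.12% against cKO, with medians of 0.54 against WT and 0.46 against cKO over those listed. Lhx2 had 0.59 (SE 0.11) against WT and 0.47 (SE 0.11) against cKO in the authors' deposited tables. Fezf2 had 0.65 (SE 0.13) against WT and 0.64 (SE 0.13) against cKO, and Dmrta2 had 0.51 (SE 0.11) and 0.46 (SE 0.11), in the authors' deposited tables. Emx1 had 0.54 (SE 0.12) against WT and 0.42 (SE 0.12) against cKO in the authors' deposited tables. Emx2 had 0.42 (SE 0.11) and 0.40 (SE 0.11) in the authors' deposited tables. Pax6, Tbr1, Eomes and Neurog2, which are also among the 19, were listed in no comparison. Of 19 genes common to neurons, 5 were lower in cHet than in WT and 9 lower than in cKO, or 26.3% and 47.4% of the list beside 0.789% and 4.14% of all genes, with none higher. Their medians over those listed were -0.95 against WT and -0.78 against cKO. They are not compared with the ventral members, which were chosen by fold change and whose larger SEs admit only large changes. Nsg2 had -1.32 (SE 0.19) against WT and -1.46 (SE 0.19) against cKO, and Stmn2 had -0.999 (SE 0.15) and -1.11 (SE 0.15), in the authors' deposited tables. Of 11 genes of glutamatergic neurons, the vesicular transporter gene Slc17a6 was lower in cHet in both comparisons, at -0.50 (SE 0.14) against WT and -0.46 (SE 0.14) against cKO in the authors' deposited tables. Slc17a6 alone is 9.09% of the list, beside 0.789% of all genes lower against WT and 4.14% against cKO. Against cKO, 2 of these genes were higher in cHet, Nfia at 0.50 (SE 0.14) and Nfib at 0.49 (SE 0.17), in the authors' deposited table. Those 2 are 18.2% of the list, beside 3.12% of all genes.

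Markers of other regions and cell types that a cortex sample can hold were counted too. Of 17 diencephalic and hypothalamic genes, 1 was lower in cHet in both comparisons, Barhl2 at -1.48 (SE 0.35) against WT and -1.66 (SE 0.35) against cKO in the authors' deposited tables. That 1 gene is 5.88% of its list, beside 0.789% of all genes lower against WT and 4.14% against cKO. None of 8 Cajal-Retzius, 11 hem and choroid plexus and 16 head mesenchyme and surface ectoderm genes was listed in any comparison by the authors' DESeq2 test. Endothelial and pericyte genes (5 of 16) and meningeal genes (3 of 11) were higher in cHet than in cKO, or 31.2% and 27.3% of these lists beside 3.12% of all genes, and 0 were listed against WT. The authors' deposited table gives 0.93 (SE 0.24) for Kdr and 0.97 (SE 0.26) for Col3a1 against cKO. Pf4 and Hbb-y, of 15 genes of blood and macrophages, were lower in cHet than in cKO, 13.3% of their list beside 4.14% of all genes. The part of tissue composition or dissection in the values of the ventral members was not tested, as levels per embryo were not analysed here.

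**Figure D5:**
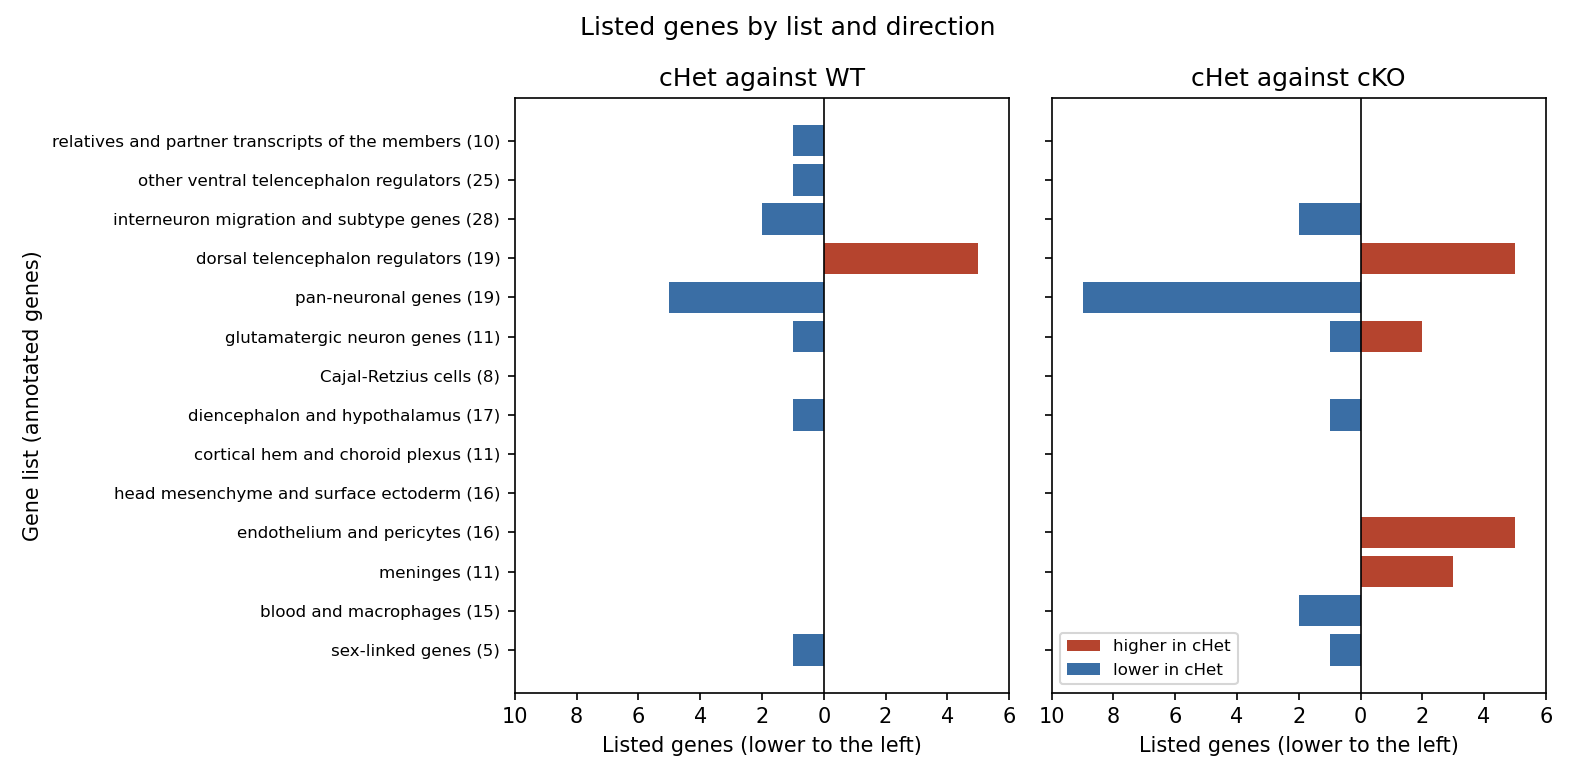
Number of listed genes per gene list, higher in cHet to the right and lower to the left, in cHet against WT (left panel) and cHet against cKO (right panel), with the number of annotated genes in brackets; the 9 members are in no list, and the list of GABA transport, breakdown and reception is not drawn. Dorsal telencephalon regulators are on the higher side in both panels, pan-neuronal and interneuron genes are on the lower side in both, and glutamatergic neuron genes are on both sides against cKO.

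The genes closest to the members in their pair of changes were found among the 185 other genes listed in both comparisons with cHet, by the distance of the pair of log2 changes from the median pair of the 5 members (-5.09 against WT and -5.15 against cKO). The farthest of the 5 members lay at a distance of 1.03, and no other gene was that close. That is no sign that the group stands apart, since the centre was set by the members, themselves chosen by these changes. Genes not listed in both comparisons, Dlx1as among them, could not enter. Grik3, a kainate receptor subunit gene, was nearest at 1.79, with -3.72 (SE 0.80) against WT and -4.01 (SE 0.80) against cKO in the authors' deposited tables. Sst followed at 2.33. Rph3a, which encodes the synaptic vesicle protein rabphilin, lay at 2.84, with -3.26 (SE 0.61) and -2.98 (SE 0.61) against WT and cKO in the authors' deposited tables. Tfap2e, a gene of the AP-2 transcription factor family, was at 3.37, Nrxn3 at 3.55, Tmem130 at 3.79, the long non-coding transcript Gm29260 at 3.85 and the carboxypeptidase gene Cpa4 at 3.87. The measure rests on 2 comparisons that share the cHet libraries.

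The cHet group also differed from the others in a gene of chromosome Y. Eif2s3y had fitted log2 changes of -24.80 (SE 3.91) against WT and -23.04 (SE 3.91) against cKO in the authors' deposited tables, and was in each table the only gene with a larger fitted change than the largest of the members. Xist, Ddx3y, Kdm5d and Uty were listed in no table. A difference in the sex of the embryos or in their litters cannot be told apart from genotype for the members either, since neither is given per embryo.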

How the data were processed

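The measurements were polyadenylated RNA libraries of 9 cortices, 3 per genotype, with groups taken from the sample titles. The authors used cutadapt for trimming, featureCounts with mm10 for counting and DESeq2 for the comparisons, per the submitters' processing notes, which give no versions. The deposited tables hold, per the file headers, a log fold change with its standard error, a statistic and an adjusted p-value per gene. The log fold changes were read as log2, the base reported by the DESeq2 tool the authors used, since the header names none, and as the first-named over the second-named group, after the table names. Signs and direction words agreed throughout, in all 248 cHet against WT rows, 971 cHet against cKO rows and 4 rows of cKO against WT. The deposited statistic is a score equal to the log2 value over its standard error, and the deposited p-values are all under 0.05, the highest being 0.0499. The authors' tables hold no counts, so depth is unknown, the planned count test could not be used and no test was run. The titles number the replicates without naming animals, and they were read as separate embryos and so as biological replicates.

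Unadjusted p-values were computed from the statistics with the normal distribution, and the number of genes adjusted was recovered as the one that returns the deposited Benjamini-Hochberg values (tested on simulated data). Intervals are 1.96 standard errors on either side. Promoters and motif shares are from RefSeq tables, and copies were sought with BLAST 2.17.0. Scripts ran in Python 3.11.15 with SciPy 1.17.1, pandas 2.3.3, NumPy 2.4.6, and figures in matplotlib 3.10.9.

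The members and the 15 gene lists were chosen with earlier results of these data known, so their counts support nothing on their own. Named were all members, all listed genes of the lists of relatives, ventral regulators, interneurons and GABA handling, the 2 with the smallest adjusted p of most other lists, the 8 most alike and listed genes starting within 500 kb of a member. Emx1 and Emx2 were named besides, as dorsal progenitor genes introduced above. Alternatives were an adjusted p under 0.01, a minimum log2 change of 1, adjustment over 30000 genes, Bonferroni adjustment, Dlx6 and Dlx6os1 counted as 1, other listing limits and promoter windows without the transcribed 50 bases. An adjusted p under 0.02 was added after seeing the data. The cHet against cKO values of the GABA handling list are not reported here.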

Additional observations from a re-analysis of the deposited data

How the results depend on the processing

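Of the 7 members listed in cHet against WT, 1 was left at an adjusted p under 0.01 and 1 under Bonferroni adjustment, Dlx6 in both cases. Of the 7 listed in cHet against cKO, 2 were left at an adjusted p under 0.01, Dlx2 and Dlx6os1, and 0 under Bonferroni adjustment. With adjustment over 30000 genes, 6 were left in cHet against WT, without Gad1, and 5 in cHet against cKO, without Dlx5 and Sp9. With an adjusted p under 0.02, added after seeing the data, 5 were left in each. A minimum log2 change of 1 could remove none, since the smallest listed change of a member was -4.07 for Dlx5 in the authors' deposited table. Counting Dlx6 and Dlx6os1 as 1 gave 6 and 7. For cKO against WT the count was 0 under each alternative run, but each was stricter than the main setting and could not have raised it. Without the transcribed 50 bases, CAGCTG was found in 0 member windows. No paired analysis was possible because the deposited tables hold no values per embryo, and for the same reason leaving out a replicate was not run. The median error of listed members does not exist for cKO against WT, so that listing limit was not run there. Depth is unknown, and errors of more than 1 log2 unit limit what can be said about the size of any member's change.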

Other observations

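Outside the 9 members, few genes had fitted log2 changes under -4, and those named here were chosen after their values were seen. In cHet against WT they were Eif2s3y, Dlx1as and Aldh1a3, an enzyme gene of retinoic acid synthesis that is expressed in the lateral ganglionic eminence. Aldh1a3 had -4.13 (SE 1.03) with an adjusted p of 0.012 in the authors' deposited table. In cHet against cKO they were Eif2s3y, Grik3 and the predicted gene Gm14204, which had -4.58 (SE 1.55) with an adjusted p of 0.047 in the authors' deposited table. In cKO against WT it was the predicted gene Gm32687 at -7.31 (SE 1.28) in the authors' deposited table.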
